A study of Homo sapiens with 6 samples.

Results

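CGA and ALPP, genes best known from the human placenta, were strongly transcribed in cultured cells labelled as a prostate cancer line, and like INSL4 they were higher with the LINC01518 overexpression vector. The 8 genes described here, of 20263 in the deposited table, are the hormone genes CGA and INSL4, the alkaline phosphatase genes ALPP, ALPG and ALPL, and the transcription factor genes GCM1, TFAP2A and TFAP2C. They were chosen by symbol, from Ensembl identifiers, because placental genes were already known to be abundant and higher in this comparison, so their differences are described without a test. Total RNA was sequenced from 6 libraries of cells that the labels name LNCaP, an androgen-responsive human prostate cancer line, although KLK3, TMPRSS2 and other defining prostate markers had 0 counts in all of them. Of these, 3 came from cells given a LINC01518 overexpression vector and 3 from cells given the empty vector. LINC01518 does not code for protein, and neither does MEG3, which the series design text gives as the insert instead; the groups are called here as the samples are labelled. How much of either RNA the cells made was not analysed here, and the labels do not tell how the vectors were delivered or whether each library had a culture of its own. Library totals were 38161544 to 42553688 counts with overexpression and 38541029 to 42229418 counts with empty vector.

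The human placenta is covered by the syncytiotrophoblast, a layer of fused cells that secretes chorionic gonadotropin into the maternal blood. That hormone pairs a common alpha subunit, encoded by CGA, with a beta subunit from the CGB genes, and the pituitary hormones LH, FSH and TSH use the same alpha subunit with other beta subunits. Placental alkaline phosphatase (ALPP) is a membrane enzyme of the same layer and a classical marker of germ cell tumours, in which its close relative ALPG is also found. INSL4 encodes an insulin-like peptide of early placenta that is restricted to primates, GCM1 a factor that drives trophoblast fusion, and TFAP2A and TFAP2C the AP-2 factors alpha and gamma, which act in trophoblast and in other epithelia. In cancers such genes can be transcribed outside the placenta, and free alpha subunit can be secreted without a beta subunit.

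The 250 bases before the RefSeq start site (build GRCh38.p14; the GENCODE 29 genes of CGA and ALPP begin upstream of it) are shown for CGA, INSL4, ALPP and ALPG, the 4 members with the highest fold changes. In the CGA sequence capitals mark, from the 5′ end, a GATA match (AGATAA), both cAMP response elements (CRE, TGACGTCA) and a TATA box (TATAAA), and in the INSL4 sequence the core of that element (TGACG). In ALPP and ALPG capitals mark the bases that differ between them in a global alignment.
CGA, chr6:87095107-87095356, minus strand: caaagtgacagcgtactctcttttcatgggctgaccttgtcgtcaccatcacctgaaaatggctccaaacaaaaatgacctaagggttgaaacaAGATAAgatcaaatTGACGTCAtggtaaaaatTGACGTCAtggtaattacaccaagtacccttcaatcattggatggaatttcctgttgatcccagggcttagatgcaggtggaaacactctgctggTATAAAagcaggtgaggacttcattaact
INSL4, chr9:5231169-5231418, plus strand: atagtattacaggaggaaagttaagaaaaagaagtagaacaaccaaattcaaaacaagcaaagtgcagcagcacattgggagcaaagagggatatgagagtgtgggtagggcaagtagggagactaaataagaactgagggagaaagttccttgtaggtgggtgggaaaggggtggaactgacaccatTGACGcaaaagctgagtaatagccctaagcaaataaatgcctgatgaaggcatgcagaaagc
ALPP, chr2:232378501-232378750, plus strand: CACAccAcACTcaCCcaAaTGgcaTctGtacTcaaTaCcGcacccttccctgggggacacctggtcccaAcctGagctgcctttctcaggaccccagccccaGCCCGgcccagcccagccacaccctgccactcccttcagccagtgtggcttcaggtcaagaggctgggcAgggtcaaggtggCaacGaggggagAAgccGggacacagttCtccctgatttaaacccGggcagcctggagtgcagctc
ALPG, chr2:232406594-232406843, plus strand: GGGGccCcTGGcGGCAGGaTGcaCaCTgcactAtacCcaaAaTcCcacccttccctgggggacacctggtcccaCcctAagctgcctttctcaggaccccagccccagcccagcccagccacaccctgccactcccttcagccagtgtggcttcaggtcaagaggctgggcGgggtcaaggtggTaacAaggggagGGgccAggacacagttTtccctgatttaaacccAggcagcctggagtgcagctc
The tandem cAMP response elements are a known feature of the human CGA promoter. Counted from the start site they begin at -142 and -124, the GATA match at -156 and the TATA box at -29. Of 35116 RefSeq promoters of 300 bases, 1.85% held at least 1 match to TGACGTCA on either strand and 0.0598% held at least 2, in 20 genes. INSL4 had 1 match to TGACG, at -62, a motif that 24.6% of promoters held and that also lies within each full CRE. CGA had a further match to it on the other strand at -210, outside both elements and not in capitals. ALPP had no match, and ALPG had 1 match, to the AP-2 motif GCCNNNGGC (23.2% of promoters), at -247. One ALPL promoter had the AP-2 motif at -126 and -86, TGACG at -213 and a TATA box at -29, the last pair on the other strand, and a second ALPL promoter had a GATA match at -120. The TFAP2A promoters had 1 match, a TATA box at -30, and GCM1 had no match. The search took in both strands. The GCM motif ATGCGGG was held by 1.86% of promoters, the TEAD motif GGAATG by 14%, the GATA motif by 10.3% and the TATA box by 11.5%. A match is a description of the letters and not evidence of binding. The promoter table held entries for 7 of the 8 members, all but TFAP2C.

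**Figure D1:**
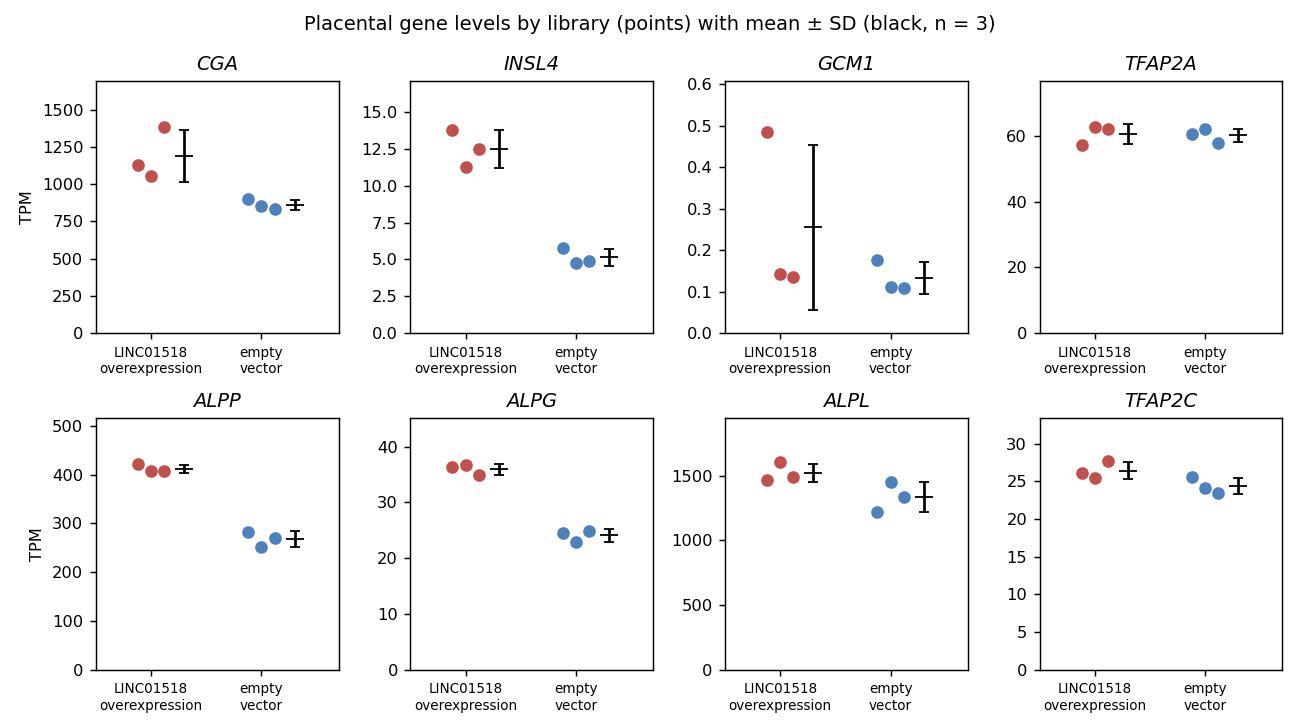
Deposited TPM of the 8 genes in each library (points), with the mean and SD of 3 libraries in black and linear axes from 0. The overexpression libraries lie above the empty vector libraries for CGA, INSL4, ALPP, ALPG and ALPL, whereas those of GCM1 and TFAP2A overlap, as do those of TFAP2C in TPM.

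Of the 8 members, 7 had enough counts for the fit across all genes (13543 genes) and GCM1 did not. Levels are given as the authors' TPM, which scale reads by transcript length and library, and log2 fold changes, overexpression minus empty vector, come from edgeR on the counts with TMM scaling. All 3 overexpression libraries lay above all 3 empty vector libraries in CPM (counts relative to the TMM-scaled library total) for 6 of the 7 tested members, all but TFAP2A. That held for 15.9% of all genes tested, a comparison from which nothing follows for genes chosen on this contrast. The median log2 fold change of the 7 was 0.52, beside -0.0035 for all genes tested, and the same limit holds for it.

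CGA (chromosome 6, 87085498 to 87095406, GRCh38, GENCODE 29) had 1128, 1057 and 1384 TPM in overexpression libraries 1 to 3, against 898, 852 and 832 TPM in the empty vector libraries. It ranked between 90 and 120 of the 20263 genes by TPM with overexpression and between 134 and 149 with empty vector. Overexpression replicate 3 stood above the rest, and the groups did not overlap. The log2 fold change was 0.52 (SE 0.0992), a 1.43-fold higher level, and lay at 0.39 without overexpression replicate 3. In bulk RNA fewer cells with a transcript and less of it per cell cannot be told apart, here and for every gene below. The coefficient of variation in CPM was 14.8% among overexpression libraries and 1.66% among empty vector libraries, where counting error alone gives 0.643% and 0.758%. Among the 1642 tested genes with a mean above 100 TPM, 13 had a log2 fold change at least that of CGA, itself included. Nothing follows from this rank, because CGA was chosen as abundant and higher. Beside CGA on the chromosome HTR1E had 0 counts, and SYNCRIP, ZNF292, GJB7 and SMIM8 had log2 fold changes of -0.17 to 0.47 and adjusted p of 0.308 to 0.556 in edgeR.

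Few counts were assigned to the beta subunit partners of CGA. Summed over the 6 CGB genes, TPM reached 0.555, 1.25 and 1.31 with overexpression and 0.572, 0.637 and 0.571 with empty vector. Most of this was CGB7, with 40, 47 and 41 counts in the overexpression libraries and 16, 46 and 24 in the empty vector libraries. CGB3, CGB5 and CGB8, the main placental beta subunit genes, had at most 2 counts in any library, under the 3 counts that a count of 0 allows. In the deposited TPM, CGA exceeded the CGB sum by 847-fold to 2030-fold in the overexpression libraries and by 1340-fold to 1570-fold in the empty vector libraries. The CGB genes are near-identical copies whose reads the authors' counting could split or leave out, so each count is uncertain. How shared reads were counted is not given. The sums and the ratios to CGA are therefore uncertain too, and do not show that beta subunit transcripts were absent. Summing the counts gave a log2 fold change of 0.63 (adjusted p = 0.323 in edgeR, SE 0.354). Of the 11 genes in the list of beta subunits and related hormone subunits, 10 never had more than 3 counts, LHB, FSHB and TSHB among them, and only CGB7 could be tested (log2 fold change 0.62, adjusted p = 0.337 in edgeR, SE 0.358). edgeR called 0 of this list and found 0 below 0.05 before adjustment, and DESeq2, limma-voom and limma-trend on TPM also called 0.

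INSL4 (chromosome 9, 5231419 to 5235304) had the highest fold change of the members. It had 591, 446 and 479 counts in the overexpression libraries, against 228, 198 and 192 counts in the empty vector libraries. In TPM these were 13.8, 11.3 and 12.5, against 5.81, 4.74 and 4.91. The groups lay far apart. The coefficient of variation in CPM was 10.8% among overexpression libraries and 9.28% among empty vector libraries. Counting error alone gives 4.45% and 6.97%. The log2 fold change was 1.33 (SE 0.118), a 2.51-fold higher level, which 50 of the 13543 tested genes reached or exceeded, INSL4 included. From that rank nothing follows either, since INSL4 was chosen on this contrast. Its neighbours on the chromosome, which belong to the same peptide family, were silent at this depth: INSL6, RLN2 and RLN1 had 0 counts in all 6 libraries, which allows at most 0.0794 CPM in any library. RCL1 differed by 0.06 on the log2 scale (SE 0.0958), and JAK2 and PLGRKT, the nearest tested genes on either side, differed by log2 values of -0.14 (adjusted p = 0.534 in edgeR, SE 0.125) and -0.33 (adjusted p = 0.168 in edgeR, SE 0.126). Of 10 other insulin-like and relaxin genes and receptors, 3 were tested and 0 called by edgeR, DESeq2, limma-voom or limma-trend on TPM, and 0 were below 0.05 in edgeR before adjustment. INSL3, which encodes the Leydig cell peptide, had 1.42, 1.79 and 2.41 TPM with overexpression and 1.81, 1.002 and 1.24 TPM with empty vector. RXFP1, the relaxin receptor gene, had a log2 fold change of 0.49 (adjusted p = 0.215 in edgeR, SE 0.214).

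ALPP (chromosome 2, 232378534 to 232382889) had 422, 408 and 406 TPM in the overexpression libraries, against 283, 251 and 270 TPM in the empty vector libraries. ALPG, which follows it on the same strand (232406843 to 232410714), had 36.3, 36.7 and 34.9 TPM with overexpression and 24.5, 22.8 and 24.9 TPM with empty vector. For both genes every overexpression library was higher than every empty vector library by a wide margin, and the log2 fold changes were alike, 0.67 (SE 0.0524) for ALPP and 0.62 (SE 0.0656) for ALPG. ALPP varied by 2.58% between overexpression libraries and 5.63% between empty vector libraries in CPM. Part of ALPP is overlapped by an antisense gene, AC068134.1, from which its reads cannot be told apart without a stated strand setting.

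Reads of ALPP and ALPG can be shared. Their coding sequences (1605 and 1596 bases) were 97.3% identical, with an identical run of 339 bases, and the upstream sequences printed above were 84.4% identical. Of all windows of 50, 100 and 150 bases of the ALPG transcript, 29.3%, 15.8% and 8.49% occurred unchanged in the ALPP transcript. ALPG took 6.73%, 7.02% and 6.72% of the summed ALPP and ALPG counts in the overexpression libraries, and 6.78%, 7.09% and 7.17% in the empty vector libraries. The exact (Clopper-Pearson) 95% intervals reached from 6.41% to 7.34% with overexpression and from 6.42% to 7.56% with empty vector, and cover counting error only. The shares averaged 6.82% ± 0.171 with overexpression and 7.01% ± 0.202 with empty vector (SD, n = 3 each), and the groups overlapped. In gene counts, transcripts of ALPG and ALPP reads assigned to ALPG cannot be told apart, so the level and fold change of ALPG are uncertain. With the counts of both genes summed into 1 feature, the log2 fold change was 0.66.

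**Figure D2:**
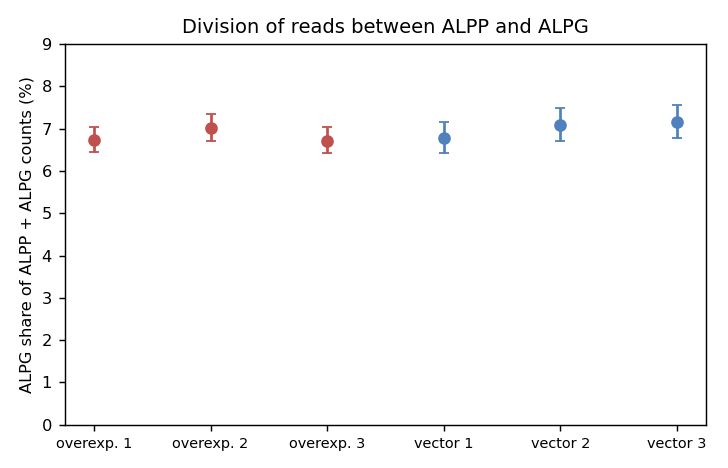
Share of the summed ALPP and ALPG counts that was assigned to ALPG in each library, in percent, with exact 95% intervals for counting error. The 6 shares lie between 6.72% and 7.17%, and the groups overlap.

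ALPL (chromosome 1, 21509372 to 21578412), the tissue-nonspecific alkaline phosphatase gene of bone, liver and kidney, is no placental gene, but it was the most abundant member. It had 1468, 1604 and 1493 TPM with overexpression and 1219, 1452 and 1339 TPM with empty vector. The groups were separated only by the small gap between overexpression replicate 1 and empty vector replicate 2, and the log2 fold change was 0.22 (SE 0.0717), or 0.15 without empty vector replicate 1. ALPI, the intestinal alkaline phosphatase gene, lies just beyond ALPG on chromosome 2 (232456123 to 232460032) and is not one of the 8 genes. It had 1338, 1335 and 1298 TPM in the overexpression libraries and 1210, 1161 and 1139 TPM in the empty vector libraries. ALPI rose by a log2 fold change of 0.22 (adjusted p = 0.0235 in edgeR, SE 0.0397), a call kept in 2 of the 6 fits without 1 library. No 100-base window of ALPI occurred unchanged in ALPP or ALPG, so reads of that length would not be shared in full.

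The 4 alkaline phosphatase genes together reached 3264, 3384 and 3232 TPM with overexpression and 2736, 2887 and 2773 TPM with empty vector. ALPL and ALPI each held between 39.5% and 50.3% of that sum in every library. ALPP held 12.9%, 12.1% and 12.6% with overexpression and 10.3%, 8.70% and 9.74% with empty vector, and ALPG held 1.08% to 1.11% with overexpression and 0.791% to 0.897% with empty vector. Of the other 5 genes in the list of ALPI and phosphate or pyrophosphate genes, SLC20A2, a phosphate transporter gene, fell, with 7.28, 7.05 and 7.42 TPM with overexpression and 15.5, 8.65 and 12.2 TPM with empty vector (log2 fold change -0.50, adjusted p = 0.0249 in edgeR, SE 0.0915). Its call was lost in all 6 fits without 1 library. ANKH, a pyrophosphate transporter gene, had a log2 fold change of -0.13 (adjusted p = 0.105 in edgeR, SE 0.0398). COPS7B, DIS3L2, ECEL1 and PRSS56, the other tested genes beside ALPP, ALPG and ALPI, had log2 fold changes of -0.09 to 0.20 and edgeR adjusted p of 0.499 to 0.812, and NPPC had 0 counts.

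The 3 transcription factor genes had smaller fold changes than the hormone and phosphatase genes, or none that could be fitted. GCM1 was barely detected, with 30, 8 and 8 counts in the overexpression libraries and 10, 7 and 6 in the empty vector libraries, or at most 0.485 TPM. Overexpression replicate 1 alone was high, the groups overlapped, and no fold change was fitted. TFAP2A, for AP-2 alpha, had 57.2, 62.7 and 62.0 TPM with overexpression and 60.5, 62.0 and 58.0 TPM with empty vector. The groups overlapped, and the log2 fold change was 0.05 (SE 0.0514). Its reads cannot be separated from those of 2 overlapping antisense genes, TFAP2A-AS1 and TFAP2A-AS2. TFAP2C, for AP-2 gamma, had 38.3, 36.3 and 40.5 CPM with overexpression and 35.8, 34.4 and 34.4 CPM with empty vector, groups that were separated by a gap smaller than the spread within either. In TPM the TFAP2C groups overlapped, and the log2 fold change was 0.14 (SE 0.0652).

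By mean TPM the members ordered as ALPL (1522 ± 72.3), CGA (1190 ± 172.0), ALPP (412 ± 8.45), TFAP2A (60.7 ± 2.98), ALPG (35.99 ± 0.972), TFAP2C (26.4 ± 1.14), INSL4 (12.5 ± 1.27) and GCM1 (0.255 ± 0.199) with overexpression (SD, n = 3). With empty vector they were ALPL (1337 ± 117.0), CGA (861 ± 33.9), ALPP (268 ± 16.0), TFAP2A (60.2 ± 2.02), TFAP2C (24.4 ± 1.1), ALPG (24.1 ± 1.09), INSL4 (5.15 ± 0.574) and GCM1 (0.132 ± 0.0389). TFAP2C and ALPG overlapped with empty vector and lay apart with overexpression, and the libraries of all other neighbours in either order lay apart.

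**Figure D3:**
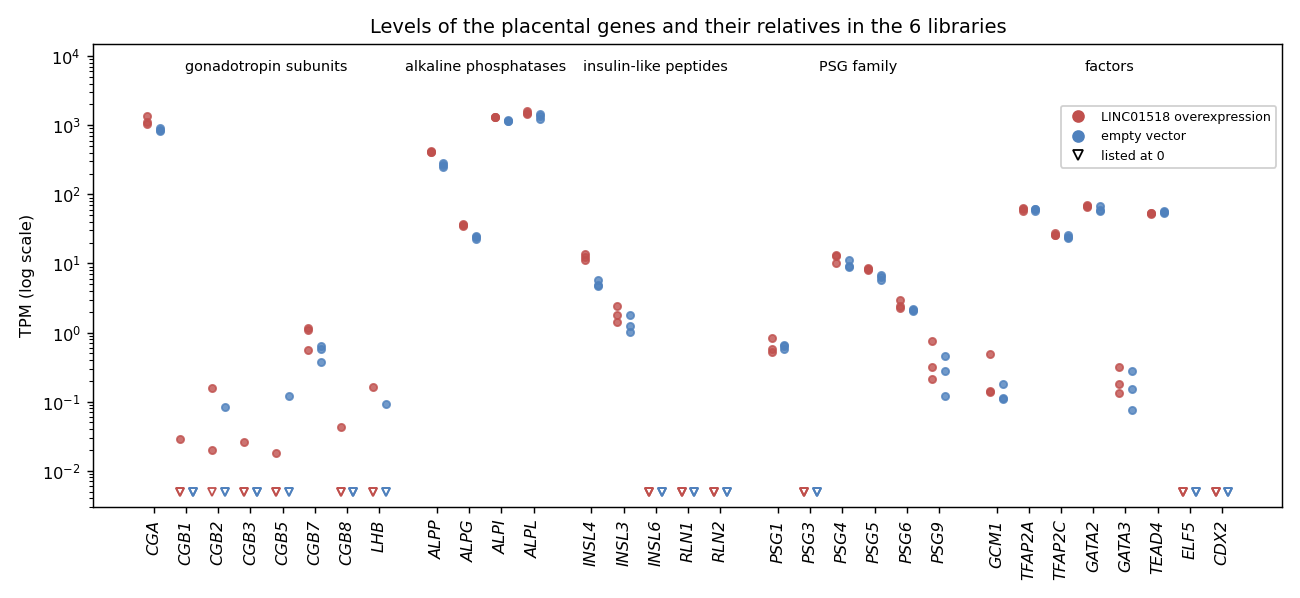
Deposited TPM on a log scale of the placental genes and their relatives in each of 6 libraries, with open triangles for values listed at 0. CGA lies about 3 powers of 10 above CGB7, the highest of the beta subunit genes, while ALPI and ALPL lie above ALPP and ALPG.

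The other genes of placental endocrine function, fusion, identity and cAMP signalling were taken from 11 lists of 183 genes in all, of which 182 were in the table and 110 tested. edgeR called 13 of the 110, or 11.8%, 8 higher and 5 lower, beside 5.6% of all genes tested (3.57% higher and 2.03% lower). The median log2 fold change of the 110 was 0.07. These calls were weak, with adjusted p of 0.0157 to 0.0456. Leaving out overexpression replicate 1, 2 or 3 left 0, 1 and 2 genes called, and leaving out empty vector replicate 1, 2 or 3 left 8, 3 and 6. Before adjustment 33 of the 110 were below 0.05 with all libraries and 25 to 31 without 1 of them (27 without overexpression replicate 1), beside 3200 of all 13543 genes tested, or 23.6%, with all libraries. The unadjusted counts of single lists below stand beside the same 23.6%. With library size as the only scaling the split was 5 higher and 5 lower, and over all genes 346 higher and 382 lower against 484 and 275 with TMM.

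Among secreted placental factors, 3 of 13 tested genes rose and 1 fell. HTRA1, a serine protease gene, had 50.2, 34.9 and 35.7 TPM with overexpression and 27.7, 28.6 and 27.9 TPM with empty vector (log2 fold change 0.40, adjusted p = 0.0157 in edgeR, SE 0.0643). TAC3, for neurokinin B, had 5.70, 6.78 and 6.59 TPM with overexpression and 4.93, 4.42 and 3.51 TPM with empty vector (log2 fold change 0.71, adjusted p = 0.0456 in edgeR, SE 0.162). PAPPA2 and PAPPA encode related proteases that cleave IGF-binding proteins, and they moved in opposite directions, PAPPA2 at 0.56 (adjusted p = 0.0437 in edgeR, SE 0.126) and PAPPA at -0.42 (adjusted p = 0.0448 in edgeR, SE 0.0944). HTRA1 kept its call in 4 of the 6 fits without 1 library, PAPPA2 in 1, and TAC3 and PAPPA in 0. ADAM12, a metalloprotease gene, had a log2 fold change of 0.12 (SE 0.0875). Of the 21 genes 7 had at most 3 counts in any library, and CRH, KISS1 and FLT1 had 0.

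The placental lactogen and pregnancy-specific glycoprotein list had 1 of 5 tested genes higher, PSG5, with 7.97, 8.22 and 8.53 TPM with overexpression and 5.80, 6.79 and 6.40 TPM with empty vector (log2 fold change 0.47, adjusted p = 0.0441 in edgeR, SE 0.105, lost in all 6 fits without 1 library). PSG4 was at 10.3, 13.4 and 12.7 TPM with overexpression and 8.97, 11.4 and 9.25 TPM with empty vector (log2 fold change 0.23, adjusted p = 0.22 in edgeR, SE 0.103). PSG genes resemble one another and may share reads, and their summed counts had a log2 fold change of 0.34 (adjusted p = 0.0449 in edgeR, SE 0.0776). The lactogen gene CSH1 had 0 counts in every library and CSH2 at most 2.

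In the transcription factor list, 1 of 17 tested genes rose and 1 fell. TBX3, a T-box repressor gene, had 36.2, 38.8 and 35.6 TPM with overexpression and 31.2, 26.0 and 24.3 TPM with empty vector (log2 fold change 0.49, adjusted p = 0.0172 in edgeR, SE 0.08, kept in 2 of the 6 fits). ETS2 fell, at -0.26 (adjusted p = 0.0396 in edgeR, SE 0.0568, lost in all 6). Of the 31 listed genes 13 had at most 3 counts in any library, and CDX2 and ELF5, factors of trophoblast stem cells, had 0. GATA3 had 9, 20 and 12 counts with overexpression and 5, 10 and 17 with empty vector. GATA2, a factor known in mouse to act on the alpha subunit promoter in the pituitary, had 68.3, 65.8 and 69.0 TPM with overexpression and 67.8, 58.2 and 59.8 TPM with empty vector (log2 fold change 0.18, adjusted p = 0.186 in edgeR, SE 0.0716). RXRA, a nuclear receptor gene, was at 0.08 (SE 0.0508).

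Among placenta-enriched and imprinted genes, 0 of 14 tested rose and 2 fell. KRT7, the keratin of trophoblast and many other epithelia, had 738, 726 and 736 TPM with overexpression and 908, 910 and 948 TPM with empty vector (log2 fold change -0.29, adjusted p = 0.0187 in edgeR, SE 0.0482). FBN2, for fibrillin-2, was at -0.26 (adjusted p = 0.0293 in edgeR, SE 0.0495). KRT7 kept its call in 2 of the 6 fits without 1 library and FBN2 in 1. S100P, which encodes a calcium-binding protein first found in placenta, had a log2 fold change of 0.13 (SE 0.115).

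Of the cAMP and protein kinase A genes, 2 of 26 tested rose and 0 fell, while 9 were below 0.05 before adjustment, beside 23.6% of all genes tested. NR4A3 and NR4A1, nuclear receptor genes induced early by cAMP and by other stimuli, were the 2. NR4A3 had 15.9, 18.7 and 13.8 TPM with overexpression and 12.3, 8.88 and 9.17 TPM with empty vector (log2 fold change 0.75, adjusted p = 0.0204 in edgeR, SE 0.126). NR4A1 had 192, 205 and 182 TPM with overexpression and 176, 158 and 154 TPM with empty vector (log2 fold change 0.36, adjusted p = 0.0222 in edgeR, SE 0.0641). NR4A3 kept its call in 3 of the 6 fits and NR4A1 in 2. GNAS, for the stimulatory G protein alpha subunit, was at 0.18 (SE 0.0621) and CRTC3, a CREB coactivator gene, at 0.16 (SE 0.0424). DESeq2 called 5 of this list, 3 higher and 2 lower, and limma-trend on TPM called 1, lower. The median log2 fold change of the 26 was 0.019, and 13 of them lay above 0.

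The remaining lists had 0 genes called by edgeR. Of 8 tested genes of syncytins and cell fusion, 3 were below 0.05 before adjustment, and DESeq2, limma-voom and limma-trend on TPM called 0. SLC1A5, the amino acid transporter that serves as a syncytin-1 receptor, had a log2 fold change of -0.23 (SE 0.0856) and ANXA5, for annexin A5, 0.12 (SE 0.0503). The syncytin genes ERVW-1 and ERVFRD-1 had 6, 2 and 5 and 4, 0 and 0 counts with overexpression, and 13, 8 and 3 and 0, 2 and 0 counts with empty vector. Of 8 tested genes of placental steroid synthesis, 0 were below 0.05 before adjustment and 0 were called by the other tools, with FDXR at 0.03 (SE 0.0769) and STARD3 at 0.05 (SE 0.16). CYP19A1, the aromatase gene, was too low to test, with 4, 6 and 2 counts with overexpression and 0 in each empty vector library. Of 9 tested AP-2 partners and target genes, 2 were below 0.05 before adjustment, with 1 call by DESeq2 and 0 by the other tools. CITED2 and CITED4, which encode AP-2 coactivators, were at 0.32 (adjusted p = 0.0612 in edgeR, SE 0.0822) and 0.17 (adjusted p = 0.166 in edgeR, SE 0.0659).

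**Figure D4:**
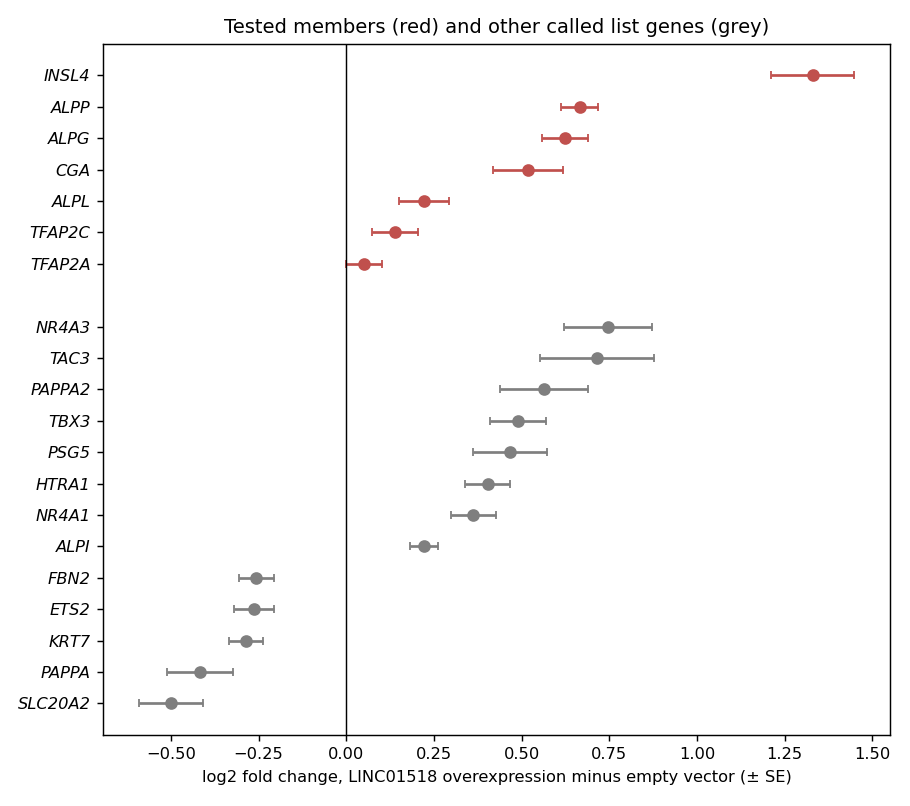
Log2 fold changes, overexpression minus empty vector, with their SE from edgeR, for the 7 tested members (red) and the 13 other list genes with an adjusted p under 0.05 (grey). The members run from 0.05 for TFAP2A to 1.33 for INSL4, and the other genes from -0.50 for SLC20A2 to 0.75 for NR4A3.

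Across the 6 libraries the genes most like CGA, ALPP and INSL4 were sought by the root mean square difference of centred log2 CPM among 11795 tested genes that averaged 1 or more in log2 CPM. ALPP was closest to ALPG (0.0401), followed by MYO1G, FOXF2, GAS1 and GRIP2 (0.0541 to 0.0678). CGA was closest to PARD3B, ZNF641, SCIN, PSG5 and MUC1 (0.0772 to 0.0944), so that 1 of its 5 was a gene of another secreted placental protein. These 5 had log2 fold changes of 0.47 to 0.56, beside 0.52 for CGA. Over 2 groups the measure picks genes of like fold change, so it does not show a placental link. INSL4 was closest to FGFBP1 (0.0793), with MAIP1, AKR1C1, PDK4 and ACTC1 at 0.145 to 0.218. Pearson's r was at least 0.946 for each of these 15 genes, over 6 points that form 2 groups of 3, so it is a description only.

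Markers were read to check the name of the cells. Of 16 luminal prostate markers, 7 had 0 counts in all libraries, among them KLK2, KLK3, KLK4, TMPRSS2, FOLH1 and TRPM8, while the general epithelial keratin genes KRT8 (which rose, log2 fold change 0.29, adjusted p = 0.0187 in edgeR, SE 0.0494) and KRT18 were the most abundant, and the list summed to 3159 to 3353 TPM with overexpression and 2783 to 2977 TPM with empty vector. Without 1 library edgeR called 1 gene of this list in 2 of 6 fits. The data go against the labelled line as far as these markers go. Of 15 syncytiotrophoblast markers 7 had at most 3 counts in any library, CGB3, CSH1, PSG3 and HSD3B1 among them, and without CGA, ALPP and INSL4 the list summed to 19.6 to 40.3 TPM with overexpression and 18.8 to 25.4 TPM with empty vector. Cytotrophoblast markers without TFAP2C summed to 925 to 938 TPM with overexpression and 1120 to 1152 TPM with empty vector, most of it KRT7 and then EGFR, with ELF5, VGLL1 and PAGE4 at 0, and the extravillous list, led by PLAC8 and ITGA5 and with HLA-G at most at 2 counts, summed to 332 to 356 TPM with overexpression and 329 to 351 TPM with empty vector. Of 15 germ cell and embryonal carcinoma markers, 8 had 0 counts, NANOG, SOX2, LIN28A, PRDM14, DPPA3 and DPPA4 among them, and the list without ALPP, ALPG and TFAP2C summed to 32.8 to 36.0 TPM with overexpression and 34.4 to 35.0 TPM with empty vector. Fibroblast markers rose in counts for 2 of 5 tested genes, COL1A1 (log2 fold change 0.47, adjusted p = 0.00452 in edgeR, SE 0.0494) and PDGFRB (0.31, adjusted p = 0.0471 in edgeR, SE 0.0708), and for 1 gene in each of the 6 fits without 1 library. PDGFRB averaged 15.7 TPM with overexpression and 16.3 TPM with empty vector. The list summed to 56.9 to 60.8 TPM with overexpression and 46.5 to 48.3 TPM with empty vector, with 5 of 10 at no more than 3 counts and LUM, PDGFRA, FAP and POSTN at 0. The immune list summed to 24.0 to 28.0 TPM with overexpression and 37.0 to 40.0 TPM with empty vector, led by CD68, with PTPRC, CD3E, MS4A1, LYZ and NKG7 at 0. CD68 had 21.9, 25.3 and 21.9 TPM with overexpression and 36.9, 37.8 and 35.2 TPM with empty vector and fell (log2 fold change -0.65, adjusted p = 0.00722 in edgeR, SE 0.08). The endothelial list, led by CDH5 and CLDN5 and with KDR and EMCN at 0, summed to 4.54 to 6.19 TPM with overexpression and 5.89 to 6.53 TPM with empty vector. The part of these cell types in the placental gene differences was not tested.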

How the data were processed

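The submitters' processing notes name Trimmomatic 0.36, HISAT2, featureCounts, Subread 1.5.1 and the build GRCh38. The deposited gene counts were whole numbers as counted by the authors, and the deposited TPM were scaled by the authors per length and library by a tool not given in the sources used here; the annotation release and strand setting are likewise not given. Symbols came from a gene name table, positions from GENCODE 29 and promoters from RefSeq (GRCh38.p14). Genes kept by filterByExpr (minimum count 10, total 15) were fitted on the counts with edgeR 4.0.16 (R 4.3.3; TMM, robust quasi-likelihood F test, group as the only term, all 6 libraries) and called at a Benjamini-Hochberg adjusted p under 0.05. The SE of a log2 fold change is its size over the square root of F. The fits were also run on simulated counts drawn with edgeR's own fitted dispersions, with 200 genes changed. Their outcome is not given here, and such counts leave out shared cultures and reads shared between paralogs. Depth was 38161544 to 42553688 counts per library, and a count of 0 allows 3 counts.

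Alternatives were other scalings and filters, DESeq2 1.42.0, limma-voom and limma-trend on TPM with pseudocounts of 0.1 and 1 (limma 3.58.1), a replicate block, summed paralogs and leaving out each library. The members and lists were chosen with earlier results of these data known. The genes named are the members, the called genes and the 2 most abundant genes of each list, up to 6 undetected markers of each cell type, the 5 genes most like CGA, ALPP and INSL4 and the 3 table genes on either side of them, 1 of which has no symbol and is not named. One marker gene and one coding stretch are not reported here. Some list genes with low or no counts (GATA3, CYP19A1, the syncytin genes) were named after their values were seen. P-values reflect only how far these libraries spread, a spread that can be technical.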

Additional observations from a re-analysis of the deposited data

How the results depend on the processing

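The log2 fold changes of the 7 tested members kept their sign under all alternatives run, and moved by less than the spread between replicates except that of INSL4, which was 1.14 instead of 1.33 on log2(TPM + 1). The ALPG share averaged 6.92% of the summed counts and 8.14% of the summed TPM, where genes are scaled by length. Leaving out 1 library gave 0.39 to 0.60 for CGA, 0.62 to 0.69 for ALPP, 0.58 to 0.67 for ALPG, 0.15 to 0.28 for ALPL and 1.25 to 1.40 for INSL4.

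Counts of calls moved more. Over all genes edgeR called 759, DESeq2 1316 and limma-trend on TPM 225 or 219 with a pseudocount of 0.1 or 1, and edgeR without 1 library 193 to 458. Of the list genes edgeR called 13, DESeq2 18, limma-trend on TPM 2 (both lower) with either pseudocount, and edgeR without 1 library 0 to 8. None of the 13 changed sign under an alternative. Fits without 1 library rest on fewer libraries, and the cause of the other shifts was not tested. With a replicate block edgeR called 232 genes, 4 of them list genes. Replicates that share a number correlated by only 0.00249, 0.0433 and 0.07 in their deviations from the group means. Not every library correlated best with its own number. Such values show little pairing by number, but they cannot exclude that libraries were handled in pairs. At this depth the CGB genes other than CGB7, GCM1, CYP19A1 and the syncytin genes had too few counts for a fold change. For the CGB genes, depth and reads shared between copies cannot be told apart.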
